A study of Mus musculus with 10 samples.

Results

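Binding of RBPJ at genes of the BMP pathway and at the Id genes was examined in cultured mouse brain pericytes, the vessel wall cells that wrap capillaries. The set held 10 of the 21938 protein-coding genes: the ligands Bmp2, Bmp4 and Bmp6, the receptors Bmpr1a and Bmpr2, the antagonist Grem1, and the targets Id1, Id2, Id3 and Id4. A peak was given to a gene when its centre lay in the gene body or in a regulatory domain of 5 kb upstream and 1 kb downstream of the gene start, extended up to the neighbouring domains by at most 1 Mb. By this rule, 23 of the 11094 RBPJ peaks fell to the 10 genes.

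RBPJ is the DNA-binding protein of the Notch pathway, and the series was designed to map where it binds in these cells by chromatin immunoprecipitation and sequencing (ChIP-seq). All 10 samples came from RD1 cells, named brain pericytes in the labels, grown without treatment in pericyte medium on dishes coated with collagen I, and they form 5 groups (RBPJ, H3K4me1, H3K4me3, total H3 and input) of 2 replicates each. The results rest on the peak lists of the 2 RBPJ samples, immunoprecipitated with an anti-RBPJ antibody from Cell Signaling. Data of the remaining 8 samples were not used here. The study calls the cells used for ChIP-seq cultured primary pericytes, and its methods describe such cultures from brains of Rbpj lox/lox mice, without using the name RD1. The labelled cell type could not be checked against pericyte markers, because a list of binding sites holds no expression. The files of both replicates were identical, so they count as 1 list with no spread between replicates. The list gives positions alone, so that the height of a peak and the depth behind it are unknown, and the lack of a peak at a gene does not show that RBPJ is absent there.

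BMPs are secreted ligands that bring type I receptors (such as Bmpr1a) and type II receptors (such as Bmpr2) together at the cell surface. The receptors phosphorylate Smad proteins, which enter the nucleus with Smad4 and switch on targets that include the Id genes. Id proteins lack a DNA-binding region and hold E proteins and other helix-loop-helix factors away from DNA, and BMP signalling is known for its part in the growth and stability of blood vessels.

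Sequences were searched on both strands for TGGGAA, the core of the RBPJ binding motif, and for GGCGCC, a GC-rich element bound by BMP-activated Smads in the Id1 promoter. The 2 motifs cannot share bases. The windows below are the central 200 bp of peaks (the whole peak for the narrowest one, at Bmp6), on the plus strand of GRCm38. Capitals mark the RBPJ core, which reads TTCCCA when it lies on the minus strand, and the GC-rich element. The first 2 windows are shown because both motifs stand in peaks away from promoters, and the third for a core match next to the middle of a narrow peak.
Id1 peak 2, chr2:152724080-152724279: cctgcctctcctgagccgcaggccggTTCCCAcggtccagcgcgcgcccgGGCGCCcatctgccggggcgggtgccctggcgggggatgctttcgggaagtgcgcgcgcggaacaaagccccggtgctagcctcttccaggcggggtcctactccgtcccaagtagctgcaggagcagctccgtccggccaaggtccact
Id2 peak 1, chr12:25100790-25100989: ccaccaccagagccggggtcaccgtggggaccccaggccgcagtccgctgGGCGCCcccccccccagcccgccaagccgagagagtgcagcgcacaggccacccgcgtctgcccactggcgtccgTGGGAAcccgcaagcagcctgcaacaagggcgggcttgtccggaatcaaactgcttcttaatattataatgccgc
Bmp6 peak 1, chr13:38272076-38272210: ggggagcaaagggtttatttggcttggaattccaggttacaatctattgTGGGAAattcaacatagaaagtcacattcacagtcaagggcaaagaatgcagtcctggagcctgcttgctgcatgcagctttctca

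Of the 10 genes, 9 had at least 1 peak, against 46.7% of all protein-coding genes. The exception was Id3. Long regions hold more peaks, and the median region of the 10 genes was 349 kb, against 93.8 kb for all genes. Together the 10 regions spanned 5.7 Mb and held 4.03 peaks per Mb, beside 4.07 peaks per Mb over the genome. With the peak density of each gene's own chromosome, regions of these lengths would hold 25.8 peaks, and 23 were found. The number of peaks at the 10 genes was therefore close to that of the genome around them. Single genes lay on either side: 5 had more peaks than their length and chromosome give, and they were Bmp4, Bmp6, Bmpr1a, Id1 and Id4. Where less than 1 peak would follow, as at Bmpr1a (0.492), any peak puts a gene above, and Id4 had 6 against 5.7. The share of all genes above their own density was not counted. The order depends on the scale of the comparison, which was repeated after seeing the data with the density within 1 Mb of each gene start, a count that includes the gene's own peaks. Regions of these lengths would then hold 28 peaks in all, and Bmp6 (3.06 against 5 found), Bmpr1a (0.568 against 1), Grem1 (0.749 against 1) and Id1 (0.703 against 3) lay above it. Bmp4 (2.63 against 2) and Id4 (8.11 against 6) then lay below.

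**Figure D1:**
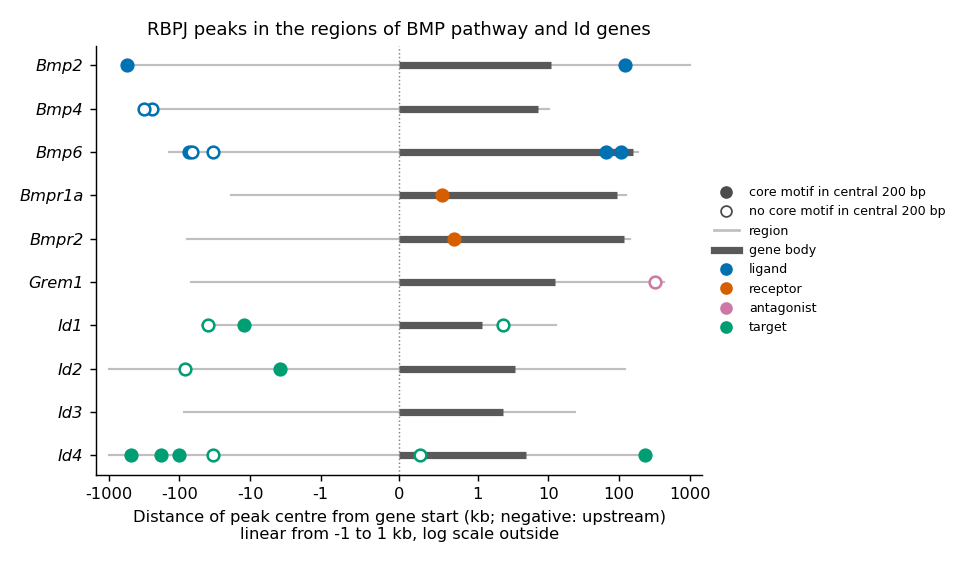
Position of each of the 23 RBPJ peaks relative to the start of its gene, in kb in the direction of transcription (linear within 1 kb, log scale outside), for 10 genes coloured by role. Filled points are peaks with the RBPJ core in the central 200 bp (13 peaks) and open points those without it; grey lines are the regions searched and dark bars the gene bodies. Few points stand near 0, and the line of Id3 carries none.

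Of the 23 peaks, 18 (78.3%) had their centre over 10 kb from the gene start and 10 (43.5%) over 100 kb, with 14 upstream and 9 downstream. Over all genes, 58.3% of peaks assigned by the same rule lay over 10 kb away and 23.8% over 100 kb. For genes with a region at least as long as the median of 349 kb these shares were 79.4% and 55.5%, so the distances were near those of other genes with long regions. A peak centre within 1 kb of a transcript start of the gene (a proximal peak) was found at 3 of the 10 genes (Bmpr1a, Bmpr2 and Id4), against 27.6% of all genes. By their centres, 15 peaks lay outside protein-coding genes, and 3 lay in introns of the genes themselves. Id1 peak 3 is among the 15, although the interval covers the whole of Id1. The assignment was not unique: 16 peaks also fell in the region of another gene, and 7 had their nearest coding transcript start in another gene. Over all genes, the same rule gave 18225 pairs of gene and peak from 11094 peaks. The shares of all peaks for these counts and for the positions by gene and intron were not counted. Which gene a distant peak acts on was not measured.

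Among the ligands, Bmp6 had 5 peaks in a region of 322 kb, where the density of chromosome 13 gives 1.47 and that within 1 Mb gives 3.06. Bmp6 is a ligand made by endothelial cells, best known for raising hepcidin in liver. Its peaks 1, 2 and 3 lay upstream, at 72964, 65788 and 33543 bp before the gene start (chr13:38272076-38272210, chr13:38279231-38279408 and chr13:38311285-38311844). They were shared with Snrnp48, whose start was the nearest coding start for peak 1. Peaks 4 and 5 lay in Bmp6 introns, at 65476 and 105710 bp past the start (chr13:38410313-38410854 and chr13:38450649-38450986), and also fell in the domain of Txndc5. Their widths ran from 135 to 560 bp, with peaks 1, 2 and 5 under 500 bp. Peak 1 was 135 bp wide, and 0.27% of all peaks were that wide or narrower. The RBPJ core stood in the central 200 bp of peaks 1, 4 and 5, at 16, 41 and 69 bp from the centre. In peak 1, shown above, the match was preceded by G, which gives the longer form GTGGGAA. Peak 2 had no core match over its whole width. A further peak at chr13:38527635-38528559 had its centre 274 bp outside the Bmp6 region, 183 bp from the start of Txndc5, and was not counted.

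Bmp4 and Bmp2 had 2 peaks each, none near the gene. Bmp4, a ligand needed for early mesoderm and vessel formation, had both peaks upstream, 245170 and 314478 bp from its start (chr14:46634931-46636747 and chr14:46704278-46706016), in the space shared with Cdkn3. The start of Cdkn3 was nearer to both, at 124702 and 55394 bp. The 2 Bmp4 peaks were wide, at 1817 and 1739 bp. Peak 1 held 6 RBPJ cores and peak 2 held 4, and all 10 stood outside the central 200 bp. In peak 1 the cores lay between 404 and 741 bp from the centre, on both sides. For Bmp2, a ligand known for bone formation and for valve development, the region was 1601 kb long and the density of chromosome 2 gives 8.93 peaks and that within 1 Mb gives 5.6, against the 2 found. Of the 217 genes with regions at least as long, 83.4% had no more peaks than Bmp2. Its peak 1 lay 558771 bp upstream (chr2:132993291-132993486, 196 bp) and 47482 bp from Fermt1, and peak 2 lay 119498 bp downstream (chr2:133671349-133671966, 618 bp). Each had 1 core in the central window, at 88 and 19 bp from the centre. The site in peak 2, on the minus strand with its flanks (chr2:133671662-133671691), is given here to show a core close to the middle of a remote peak.
Bmp2 peak 2 site: cagctgaccagtTGGGAAagtacacagtcc

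**Figure D2:**
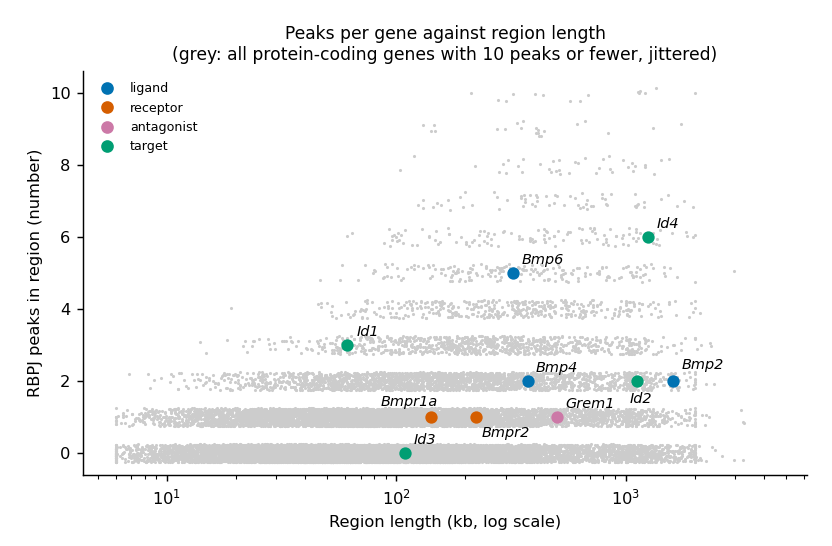
Number of RBPJ peaks in the region of each protein-coding gene (grey points, jittered vertically) against the length of the region in kb (log scale), with the 10 genes in colour by role. The 27 genes with more than 10 peaks are not drawn. Id1 with 3 peaks in 61.1 kb stands at the short end of genes with 3 peaks, while Bmp2 and Id2 have 2 peaks in regions over 1 Mb.

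Both receptors had a single peak that spanned the gene start. Bmpr1a, a type I receptor for BMP2 and BMP4, had a peak of 1657 bp (chr14:34501973-34503629) whose centre lay 540 bp inside the gene and 114 bp from another of its transcript starts. Bmpr2, the type II receptor mutated in heritable pulmonary arterial hypertension, had a peak of 3196 bp (chr1:59762506-59765701), wider than or as wide as 94.9% of all peaks, with its centre 703 bp past the start in an untranslated region. GC content was 68.9% in the Bmpr1a peak and 56.3% in the Bmpr2 peak, beside a median of 63.4% for peaks within 1 kb of a coding start and 49.6% for those farther away. The ratio of observed to expected CpG was 1.02 and 0.845, beside medians of 0.782 and 0.229 in these classes. Each had 1 RBPJ core in the central window, at 41 bp from the centre in Bmpr1a (chr14:34502746-34502775) and at 36 bp in Bmpr2 (chr1:59764053-59764082). Both sites lie on the plus strand.
Bmpr1a site: gcgcgcgcgcacTGGGAAgggcccgccagc
Bmpr2 site: cgacccagtcggTGGGAAggatttgttgat

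The Bmpr1a peak held 5 GGCGCC elements, 3 of them in the central window, and the Bmpr2 peak held 3, of which 1 was central. Both receptor peaks thus carried the 2 motifs within 200 bp, a combination found in 1.69% of all peaks. Elements of this composition are frequent in promoters, and 19.9% of peaks within 1 kb of a coding start had a central GGCGCC.

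Grem1, a secreted protein that binds BMP2 and BMP4 and keeps them from their receptors, had 1 peak in 499 kb, where 2.79 would follow from the density of chromosome 2 and 0.749 from that within 1 Mb. It lay 317860 bp beyond the Grem1 start in an intron of Fmn1 (chr2:113440582-113440990, 409 bp), 278 bp from a start of Fmn1 and 308 bp from the antisense transcript Gm13963. The peak was given to Grem1 by its long domain, and by position it was a promoter peak of Fmn1. Neither TGGGAA nor GGCGCC occurred in its sequence.

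The Id genes had 11 of the 23 peaks. Id1, the member whose BMP response is best studied, had 3 peaks in a region of only 61.1 kb, where 0.341 would follow from the chromosome and 0.703 from the density within 1 Mb. Peak 3 (chr2:152735098-152741950) was 6853 bp wide, and 99.1% of all peaks were this wide or narrower. It covered the whole gene of 1160 bp, from 1153 bp before its start to 4540 bp past its end. The centre of this wide interval lay 2273 bp past the start, and Id1 was not counted among genes with a proximal peak although its start was covered. The interval held 9 RBPJ cores, with 1 upstream of the gene, 4 in it and 4 beyond it, or 1.31 per kb, beside 1.25 per kb over all peaks. None stood in the central 200 bp.

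A GGCGCC element stood 1097 bp upstream of the Id1 start, inside the same peak and 54 bp from its left edge. BMP-activated Smads are known to bind such an element in the upstream promoter of Id1. The site with its flanks (chr2:152735140-152735169, plus strand) is printed because it places a Smad-type element inside an RBPJ peak.
Id1 upstream site: gaccgcccgcgcGGCGCCagcctgacagcc

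Id1 peak 2, whose window is printed above, lay 12071 bp upstream (chr2:152723897-152724464, 568 bp) in the region also assigned to Mcts2. Its central window had 72% GC, and held 1 RBPJ core at 72 bp and 1 GGCGCC at 48 bp on the same side of the centre. Id1 peak 1 (chr2:152696160-152697069, 910 bp) lay 39637 bp upstream in an intron of H13 and 78 bp from the start of the noncoding RNA Gm26841. Its 1 core stood 382 bp from the centre.

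Id2, which in many tissues restrains differentiation, had 2 peaks upstream in a region of 1121 kb, where the density of chromosome 12 gives 3.57 and that within 1 Mb 3.92. Of the 715 genes with regions at least as long, 82.7% had no more than 2. Peak 1 lay 3750 bp before the start (chr12:25100521-25101260, 740 bp) and was assigned to no other gene. It had 61.2% GC and a CpG ratio of 0.853, beside a median of 0.229 over all distal peaks. As the window above shows, it held GGCGCC at 48 bp and GTGGGAA at 27 bp, on opposite sides of the centre. Peak 2 lay 84170 bp upstream (chr12:25181012-25181608, 597 bp), 458 bp from the noncoding RNA Gm47705, and held neither motif.

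Id3 was the gene without a peak. The nearest peak centre was 266573 bp upstream, and the gap between the peaks on either side measured 0.564 Mb. Id3 lies on chromosome 4, where peaks were sparse, with 158 peaks or 1.01 per Mb, and the density there gives 0.11 peaks in its 109 kb. Within 1 Mb of the Id3 start there were 8 peaks, as many as at Bmpr1a, and that density gives 0.436. Of the 1327 genes on chromosome 4, 14.7% had a peak, against 55.3% of genes on chromosomes other than 4, 7, X and Y. Less than 1 peak would follow from either density in a region of this length.

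Id4, which is expressed in neural progenitors and astrocytes, had 6 peaks, the most of the 10 genes, and 1.3% of all genes had 6 or more. Its region was 1247 kb long, however, and the density of chromosome 13 gives 5.7 and that within 1 Mb 8.11. Peak 5 spanned the gene start (chr13:48260694-48262301, 1608 bp), with its centre 269 bp past it in an untranslated region. Peaks 1 to 4 lay 483524, 181710, 101814 and 33187 bp upstream (chr13:47777460-47777948, chr13:48079314-48079722, chr13:48159241-48159588 and chr13:48227738-48228344), and Id4 was the nearest coding gene for each. Rnf144b shared peaks 1 and 2 through its own long domain. Peak 6 (chr13:48493313-48493469, 157 bp) lay 232163 bp downstream in an intron of Zfp169 and nearer to that gene.

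RBPJ cores stood in the central window of 4 of the 5 Id4 peaks away from the gene start. These 4 were 157 to 489 bp wide. Among all peaks over 1 kb from any coding start, 35.3% held a central core, and 48.7% of those under 500 bp did. Peak 1 had 2 central cores, peak 2 had 3, and peaks 3 and 6 had 1 each, with 5 over the whole of peak 3. Peak 4 had none there and 1 core at 285 bp from its centre. At least 2 central cores occurred in 4.34% of all peaks and at least 3 in 0.595%. The site nearest to the middle stood 3 bp from the centre in peak 1 (chr13:47777693-47777722, minus strand) and 7 bp from it in peak 3 (chr13:48159407-48159436, plus strand), and both had the longer form GTGGGAA.
Id4 peak 1 site: ttggtaagcctgTGGGAAagtatgctggct
Id4 peak 3 site: ttaatgtatcagTGGGAAcatgttggggag

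Id4 peak 4 had 70.5% GC in its central window and 2 GGCGCC elements outside it, at 130 and 185 bp from the centre. Peaks over 1 kb from a transcript start of their gene that held GGCGCC anywhere numbered 4, or 20% of 20, and all were at Id genes: Id1 peaks 2 and 3, Id2 peak 1 and Id4 peak 4. None of the 9 ligand peaks held it. Among all distal peaks, those over 1 kb from any coding start, 12.4% held the element, and 49.5% of the whole list lay within 1 kb of a coding start, where it stood in 55.1%.

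**Figure D3:**
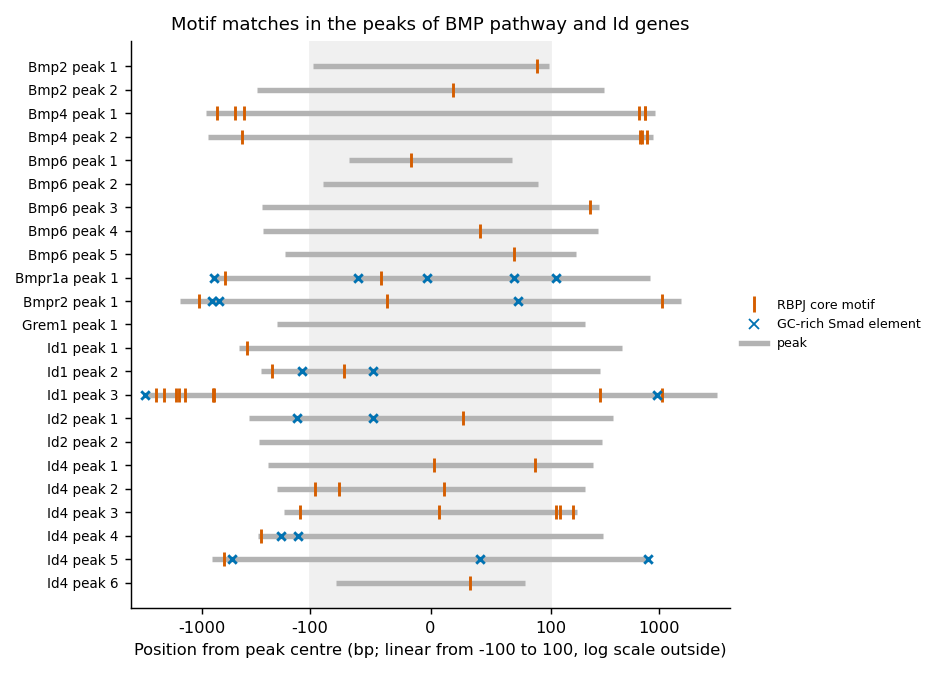
Matches of the RBPJ core (orange ticks) and of the GC-rich Smad element (blue crosses) in each of the 23 peaks, by position from the peak centre in bp (linear within 100 bp, log scale outside); grey bars show the extent of each peak and the shaded band the central 200 bp. Blue crosses appear in 7 peaks, those of the receptors and 5 of Id1, Id2 and Id4, while both Bmp4 peaks have orange ticks only outside the shaded band.

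Over the 23 peaks, the RBPJ core was in the central 200 bp of 13, or 56.5%, against 25.8% of all peaks. The 95% exact binomial interval (34.5 to 76.8%, counting error only) treats the 23 peaks as independent draws. They came from genes chosen with earlier results known, and 4 of the 13 were at Id4, so the interval is no test against 25.8%. By width and position, 7.04 of the 23 would hold the core, as given below. By role, 5 of 9 ligand peaks, 2 of 2 receptor peaks, 0 of 1 at Grem1 and 6 of 11 at Id genes had it. The longer GTGGGAA, which is included in these counts, stood in 7 peaks, or 30.4%, against 9.3%. Over the whole peak, 20 of 23 held TGGGAA (87%), against 64.9%. The 3 without it were Bmp6 peak 2, Grem1 peak 1 and Id2 peak 2.

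The share of peaks with a central core depends on width and position in the whole list, from 13.3% for peaks of 500 bp or more within 1 kb of any coding start to 48.7% for peaks under 500 bp farther away. Of the 23 peaks, 9 were under 500 bp, and 7 of these had the core, against 41.1% of all peaks under 500 bp. Of the other 14, 6 had it, against 17.2%. With the shares of all peaks in the 4 classes of width and position, 7.04 of the 23 would hold the core, and 13 did. This difference was not tested, since the genes were picked with earlier results known, and 4 of the 13 peaks belong to Id4 alone. Without Id4, 9 of 17 peaks held it (52.9%).

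**Figure D4:**
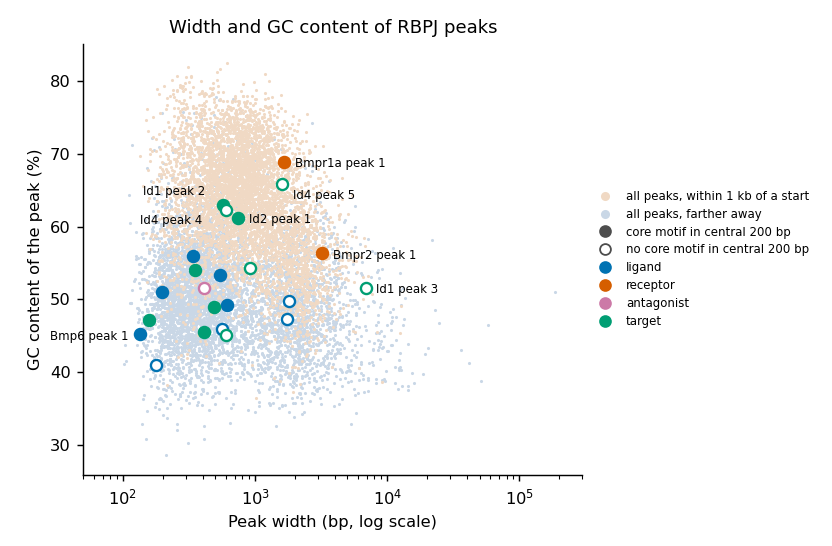
GC content of each peak in percent against its width in bp (log scale), for all 11094 peaks (small points, coloured by whether they lie within 1 kb of a coding transcript start) and for the 23 peaks at the BMP pathway and Id genes (large points, filled where the central 200 bp hold the RBPJ core). The large points lie mostly among the peaks away from starts, with median width 568 bp against 690 bp for the whole list, and Id1 peak 3 stands out by its width of 6853 bp.

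Sequences from 250 bases before to 50 after the RefSeq gene start (GRCm38.p6) were matched for 8 of the 10 genes, all except Bmp2 and Id1. The promoters of Bmpr1a, Bmpr2 and Id4 lay wholly within a peak, and each held 1 TGGGAA and 1 GGCGCC. Promoters of Bmp4, Bmp6, Grem1, Id2 and Id3 had no base in a peak and no TGGGAA, while those of Grem1 and Id2 held 1 GGCGCC each. Over all 32851 promoters, 25.6% held TGGGAA and 11.9% held GGCGCC. A missing match says only that these letters are not in this window. The 250 bases upstream of the Id4 start (chr13:48260866-48261115, plus strand) are printed as the promoter of an Id gene that lies in a peak, with both motifs in capitals.
Id4 promoter: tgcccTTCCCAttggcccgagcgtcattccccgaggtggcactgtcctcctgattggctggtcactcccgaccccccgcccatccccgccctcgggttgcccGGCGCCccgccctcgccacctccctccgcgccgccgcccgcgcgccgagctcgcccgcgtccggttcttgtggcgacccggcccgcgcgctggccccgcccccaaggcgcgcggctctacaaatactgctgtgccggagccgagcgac

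The rest of the pathway was described with 46 further genes in 6 groups. Of these, 30 had a peak (65.2%) and 15 a proximal peak (32.6%), beside 46.7% and 27.6% of all genes. Their regions were longer, with a median of 280 kb against 93.8 kb, and held 72 peaks in 19.8 Mb or 3.65 per Mb, below the 4.07 per Mb of the genome. Per length, the further genes thus had no more peaks than the genome. All 9 receptors and co-receptors had a peak, with proximal peaks at the type II receptor genes Acvr2a and Acvr2b and at the co-receptor gene Rgmb. Eng, the endoglin co-receptor, had 5 peaks in 80.4 kb, none of them proximal. Its count was singled out after the values were seen. Among the ligands, 2 of 10 further ligand genes had a peak, Bmp7 with 4 and Bmp5 with 1, and 0 had a proximal one. With Bmp2, Bmp4 and Bmp6 included, 5 of 13 ligand genes (38.5%) had a peak in the region and none had a proximal one. Region lengths varied widely in both groups, from 52.3 to 1165 kb (median 184 kb) for the receptors and from 10.4 to 1170 kb (median 230 kb) for these 10 ligands. Of the 8 ligand genes without a peak, Bmp8a, Bmp8b and Gdf6 lie on chromosome 4, where peaks were sparse.

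Of 6 Smad genes, 5 had a peak, and each of these had a proximal one. They were Smad1 and Smad5, which carry the BMP signal, the shared partner Smad4, and the inhibitors Smad6 and Smad7, each with 7 peaks in its region. The exception was Smad9. Of the 5 genes, Smad7 had a proximal peak with a central TGGGAA, 192 bp wide and centred at -820 bp from its start. The proximal peak of Smad6 was 2749 bp wide and held 1 core outside the centre. Antagonist genes had a peak in 7 of 12 cases, with proximal ones at Chrd, Twsg1 and Bambi. Of 6 further target genes, 4 had a peak, proximal at Atoh8, a helix-loop-helix factor, and at Runx2, where it lay 78593 bp past the 5′ end of the gene by another of its transcript starts. Among the E proteins that Id proteins bind, all 3 had a peak, with proximal ones at Tcf4 and Tcf12. Groups of 3 to 12 genes are small, and no test was made of the differences between them.

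**Figure D5:**
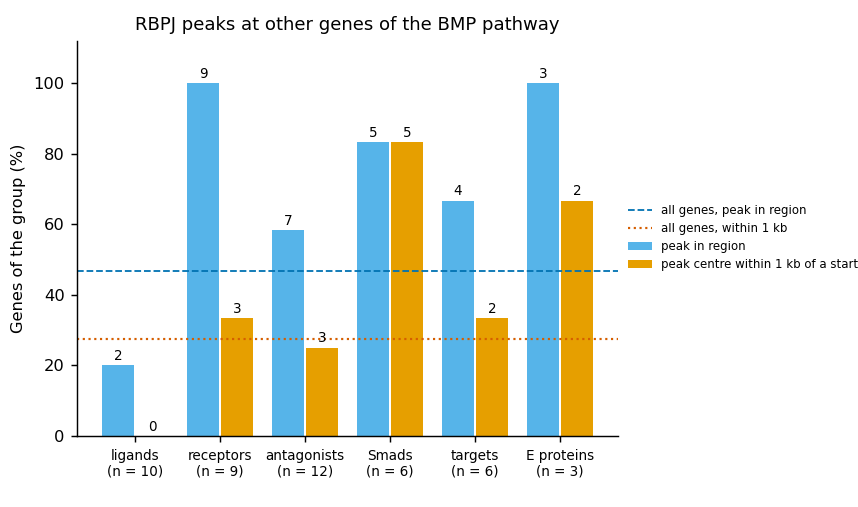
Share of genes in each of 6 further groups of the BMP pathway with an RBPJ peak in the region (blue bars) and with a peak centre within 1 kb of a transcript start (orange bars), in percent of the group, with gene numbers above the bars; dashed and dotted lines mark the 46.7% and 27.6% of all protein-coding genes. Ligands have the lowest bars (2 and 0 of 10 genes), and 5 of 6 Smad genes have a peak at a start.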

How the data were processed

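RBPJ ChIP-seq of RD1 cells was taken from the 2 RBPJ samples, grouped by their titles. According to the study's methods, reads were aligned by the authors with bowtie (-k 1 -m 3, GRCm38) and duplicates removed. Calls of MACS2 and PeakRanger in both replicates were joined when closer than 2 kb, a minimum of 3 overlapping calls was required, and regions on the ENCODE blacklist were taken out. The deposited files give each peak as a start and an end position in bp without a score, so depth and replicate error could not be given. Merging can widen intervals and move their centres away from the bound base.

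Starts were read as counted from 1. Regions were built from GENCODE M21 protein-coding genes, and the reference genome (GRCm38.p6) gave the sequences, with 0 chromosomes in which a peak ran past the end. Of 7 motifs searched, TGGGAA in the central 200 bp was the main one. Hjv was matched as Hfe2. One result is not reported here. Counts at the genes were set beside those of all genes or peaks, with no test. The interval is exact (Clopper-Pearson). All 10 genes are described in full, and of the 46 further genes those with a proximal peak are named. Members, lists and motifs were chosen with earlier results of these data known. On simulated windows, 500 of 500 planted motifs were found, with 0 false matches in 1500 others. Alternatives covered smaller regions, overlap instead of centres, width limits, distance limits, motif window and form, and leaving out a replicate. Software was pysam 0.24.0, pandas 2.3.3, numpy 2.4.6, scipy 1.17.1 and matplotlib 3.10.9 under Python 3.11.15.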

Additional observations from a re-analysis of the deposited data

How the results depend on the processing

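Gene body plus basal domain alone left 5 genes with 6 peaks, and 35% of all genes then had a peak. Of these 6 peaks, 83.3% held a central TGGGAA, a share that was not counted for the same regions of all genes. An extension of at most 100 kb left 14 peaks at 6 genes (43.3% of all genes with a peak), and a minimum width of 500 bp left 14 peaks at 8 genes (34.9% of all genes). Within 5 kb of a transcript start, 5 genes had a peak, and the share of all genes at this distance was not counted. Searching whole peaks gave 87% with TGGGAA, and GTGGGAA gave 30.4% in the central 200 bp. Counting any overlap of 1 bp gave 24 peaks and 4 genes with a proximal peak, Id1 then among them. The share of all genes by overlap was not counted. Leaving out Id4, chosen after seeing the data, left 17 peaks. Without replicate 1 or replicate 2, all 4 counts were the same, because both files hold 1 list. No paired analysis was possible because both RBPJ files are identical and no result compares groups. Which gene a peak serves rests on the region rule, and weak binding below the calling limit is not in the list.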

Other observations

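Other short motifs were counted in the same 23 peaks. TGAGAA, a weaker relative of the RBPJ core, stood in the central 200 bp of 7 peaks (30.4%), against 14.4% of all peaks. The 7 were among the 20 peaks over 1 kb from a start of their gene (35%), beside 20.3% of all distal peaks, and 4 of them were at ligand genes. Over whole peaks, TGAGAA stood in 52.2% of the 23, against 45.3% of all peaks. For the 20 distant peaks the whole-peak share was 50%, against 52.9% of all distal peaks. The E-boxes CACGTG and CATATG, sites of helix-loop-helix factors, were in the central window of 0 of the 23 peaks, against 4.11% and 2.01% of all peaks. Over whole peaks each was present in 2 of 23 (8.7%), against 17.8% and 10.9% of all peaks. The palindromic Smad element GTCTAGAC occurred in 0 of the 23 peaks and in 0.955% of all peaks. Over their full length the 23 peaks held 1.91 TGGGAA per kb, beside 1.25 per kb over all peaks.

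Noncoding genes began within 1 kb of 3 of the centres, namely Gm26841 at Id1 peak 1, Gm47705 at Id2 peak 2 and Gm13963 at the Grem1 peak. The share of all peaks near a noncoding start was not counted, and the Grem1 peak also lay 278 bp from a coding start of Fmn1. None of these 3 peaks held a central TGGGAA, which 13 of the 23 peaks held. This grouping was noticed after the values were seen and was not tested.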
